A study of Mus musculus with 13 samples.

Results

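The genes described here are 10 genes of lipid droplets and lipid storage, Plin2, Plin3, Dgat1, Dgat2, Hilpda, Pnpla2, Lipe, Mgll, Lipa and Fabp5. They were taken by gene symbol from the 52636 genes in the tables, and all 10 passed the filter on low counts that left 17086 genes to test. The values come from RNA-seq of brain-resident myeloid cells, mostly microglia, which were sorted from the cortex and hippocampus as CD11b+ CD45+ Ly6g- Ccr2- cells. The comparison was between 7 PS2APP;Trem2wt mice, of which 2 were male, and 6 PS2APP;Trem2ko mice, of which 1 was male, at 14 to 15 months of age, to ask how microglia facing amyloid plaque differ when Trem2 is missing. Both groups carried the human PS2 and APP transgenes with familial Alzheimer's disease mutations, so no mouse was free of amyloid pathology. The PS2APP;Trem2ko mice, labelled PS2APP;Trem2KO, had the Trem2 null allele Trem2tm1(KOMP)Vlcg in every cell of the body. That allele came from a C57BL/6N line and was crossed into PS2APP mice kept on C57BL/6J. Trem2, the targeted lipid-sensing receptor, reached 1044 ± 141 nRPKM (SD, n = 7) when intact and 0.887 ± 0.734 (SD, n = 6) when deleted, so every library matched its label. nRPKM is the authors' count of reads scaled by gene length and, for each library, in proportion to a DESeq size factor. It allows levels of different genes to be compared.

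Lipid droplets are stores of triglyceride and sterol ester enclosed by a phospholipid layer with a coat of perilipins. Cells fill them by joining fatty acids to glycerol, and empty them through a chain of lipases in the cytosol, while lipids taken up from outside are broken down by an acid lipase in the lysosome. Microglia that engulf myelin and cell debris take in much lipid, and droplet-laden microglia are known from the aged brain.

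Of the 10 genes, only Fabp5, a carrier of fatty acids in the cytosol, passed the test. It fell 3.38-fold in PS2APP;Trem2ko microglia (95% interval 2.41 to 4.75), and the 6 PS2APP;Trem2ko mice lay below all 7 PS2APP;Trem2wt mice. With an adjusted p of at most 0.05 taken as the threshold (quasi-likelihood test of edgeR), 1 of 10 genes was lower and 0 of 10 were higher, against 1.53% lower and 0.503% higher among all 17086 genes. Without adjustment, 3 of 10 had a p of 0.05 or less (Fabp5, Dgat2 and Dgat1), as did 14.8% of all tested genes. Their median log2 fold change was -0.01, beside 0.00 over all genes. For 8 of 10, all but Fabp5 and Dgat2, the 95% interval of the difference excluded a change of 2-fold in either direction, as it did for 74.7% of all tested genes.

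Because the finding turns on Fabp5, and because processed pseudogenes copy its messenger RNA, its longest coding exon is shown with the matching stretch of its closest copy, Gm6166. The exon is the second coding exon, chr3:10014971-10015143 on the plus strand of GRCm38, and the copy lies at chr9:57484042-57484214 on the plus strand, both by the GENCODE M21 annotation. Capitals mark the only base of 173 at which they differ, and the longest stretch without a difference is 109 bases, longer than the 50-base reads.
Fabp5 exon: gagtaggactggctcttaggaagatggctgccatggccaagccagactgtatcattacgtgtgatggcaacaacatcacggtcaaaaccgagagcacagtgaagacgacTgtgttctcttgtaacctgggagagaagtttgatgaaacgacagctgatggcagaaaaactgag
Gm6166 copy: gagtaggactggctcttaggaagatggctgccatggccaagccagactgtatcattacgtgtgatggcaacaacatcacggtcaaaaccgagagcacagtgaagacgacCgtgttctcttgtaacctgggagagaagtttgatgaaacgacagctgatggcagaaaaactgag
A read that falls within that stretch could have come from either gene. How the counting treated such reads was not given in the sources used here.

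**Figure D1:**
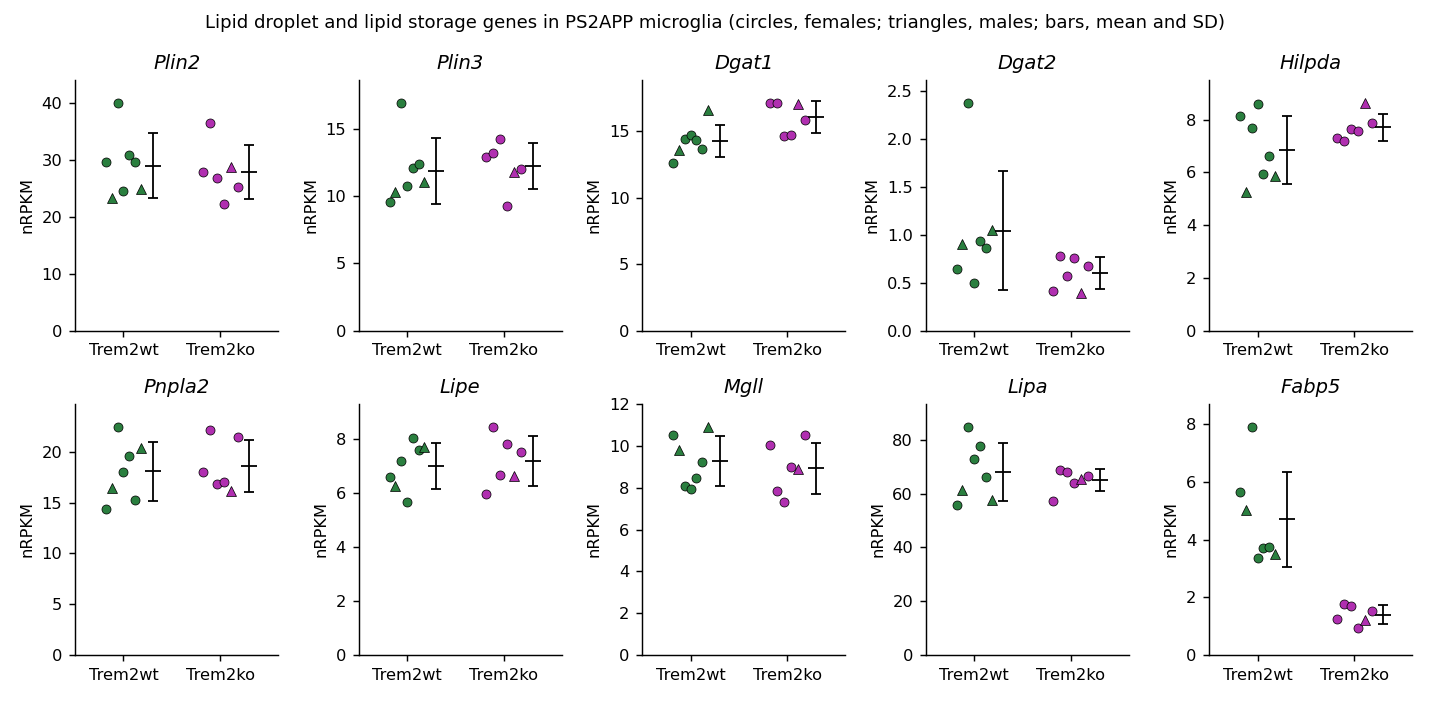
Expression of the 10 genes in each mouse, in nRPKM on linear axes that start at 0. Circles are females, triangles are males, and the bars give mean and SD for 7 PS2APP;Trem2wt (green) and 6 PS2APP;Trem2ko mice (magenta). The groups stand apart for Fabp5 and overlap for the other 9 genes.

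The levels set the genes in an order that was much the same in both genotypes. In PS2APP;Trem2wt mice Lipa was highest at 68.1 nRPKM, followed by Plin2, Pnpla2, Dgat1, Plin3, Mgll, Lipe, Hilpda, Fabp5 and lastly Dgat2 at 1.04 nRPKM. The step from Lipa to Plin2, from Plin2 to Pnpla2 and from Fabp5 to Dgat2 held without overlap of the PS2APP;Trem2wt ranges. The other 6 neighbouring pairs had overlapping ranges. Lipe and Hilpda could not be ordered, since Lipe was the higher in 4 of 7 PS2APP;Trem2wt and 2 of 6 PS2APP;Trem2ko mice.

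Gene positions below are from GRCm38. Among the droplet coats, Plin2 (chr4:86648386-86670060), the perilipin found on droplets of most cells, ranged in PS2APP;Trem2wt mice from 23.3 to 40.0 nRPKM with a median of 29.6. In PS2APP;Trem2ko mice it ranged from 22.1 to 36.4 with a median of 27.3. These ranges almost coincided, and the log2 fold change was -0.06 (SE 0.13, 95% interval -0.33 to 0.22, edgeR adjusted p = 0.887). Plin3 (chr17:56277476-56292873), a perilipin that moves from the cytosol onto young droplets, was at 9.56 to 16.9 nRPKM (median 11.1) in PS2APP;Trem2wt and 9.27 to 14.2 (median 12.4) in PS2APP;Trem2ko mice. Its log2 fold change was 0.04 (SE 0.13, edgeR adjusted p = 0.928). A single PS2APP;Trem2wt mouse, mouse 3, was highest for both coats. Plin3 lies on the same chromosome as Trem2, as do Agpat1 and Agpat4, which are described below.

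Dgat1 and Dgat2 are unrelated enzymes that catalyse the final step of triglyceride synthesis. Dgat1 (chr15:76502015-76511953) was at 12.6 to 16.6 nRPKM (median 14.4) in PS2APP;Trem2wt and 14.6 to 17.1 (median 16.4) in PS2APP;Trem2ko mice. It was the steadiest member in PS2APP;Trem2wt mice, with a coefficient of variation of 8.67%, and 3 of 6 PS2APP;Trem2ko mice were above all PS2APP;Trem2wt mice. The log2 fold change of 0.17 (SE 0.08, 95% interval 0.01 to 0.33) had an unadjusted p of 0.0385 and did not pass over all genes (edgeR adjusted p = 0.300).

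Dgat2 (chr7:99153658-99182719) was the scarcest of the 10, at 0.497 to 2.38 nRPKM (median 0.906) in PS2APP;Trem2wt and 0.393 to 0.775 (median 0.620) in PS2APP;Trem2ko mice. PS2APP;Trem2wt mouse 3 had 2.38 nRPKM and the other PS2APP;Trem2wt mice at most 1.05, so that mouse raised the mean of its group. The log2 fold change was -0.82 (SE 0.32, 95% interval -1.50 to -0.14, edgeR adjusted p = 0.231), and without that mouse it was -0.47. Its PS2APP;Trem2wt mice also had the widest spread of the 10 genes, with a coefficient of variation of 59.5%.

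Hilpda (chr6:29272488-29275446) is a small hypoxia-induced droplet protein that inhibits the lipase made by Pnpla2. It was at 5.25 to 8.61 nRPKM (median 6.61) in PS2APP;Trem2wt and 7.21 to 8.65 (median 7.61) in PS2APP;Trem2ko mice. The PS2APP;Trem2ko mice sat at the upper end of the PS2APP;Trem2wt spread, and 1 of 6, the male, was just above it. The 2 PS2APP;Trem2wt males were at 5.25 and 5.85 nRPKM, below all PS2APP;Trem2wt females. The log2 fold change was 0.17 (SE 0.12, 95% interval -0.09 to 0.42, edgeR adjusted p = 0.557), and in females alone it was 0.024 (edgeR adjusted p = 0.948).

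The lipases of the cytosol act in turn. Pnpla2 (adipose triglyceride lipase) removes the first fatty acid, Lipe (hormone-sensitive lipase) the next and Mgll (monoglyceride lipase) the last. Pnpla2 (chr7:141455198-141460743) was at 14.4 to 22.5 nRPKM (median 17.96) in PS2APP;Trem2wt and 16.2 to 22.2 (median 17.5) in PS2APP;Trem2ko mice, with a log2 fold change of 0.04 (SE 0.11, edgeR adjusted p = 0.921). Lipe (chr7:25379527-25398710) was at 5.64 to 8.01 nRPKM (median 7.16) and 5.94 to 8.44 (median 7.10), with a log2 fold change of 0.03 (SE 0.10, edgeR adjusted p = 0.916). Mgll (chr6:88724412-88828360) was at 7.92 to 10.9 nRPKM (median 9.25) and 7.33 to 10.5 (median 8.95), with a log2 fold change of -0.06 (SE 0.10, edgeR adjusted p = 0.845). For each of these lipases the genotypes overlapped over most of their range, and the 95% intervals ran from -0.20 to 0.28 for Pnpla2, from -0.18 to 0.25 for Lipe and from -0.27 to 0.15 for Mgll. Lipe overlaps an antisense gene, 4732471J01Rik, whose reads came to 12.1% of those of Lipe, and Mgll overlaps Gm44001, which had 14.7% as many reads as Mgll. Whether the counting used strand was not stated, so reads of Lipe and its antisense gene may not be separated. Gm44001 lies on the same strand as Mgll, and strand would not separate those reads.

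Lipa (chr19:34492318-34527474), the lysosomal acid lipase that releases fatty acids and cholesterol from engulfed lipid, was the most abundant member. It was at 55.9 to 84.9 nRPKM (median 66.4) in PS2APP;Trem2wt and 57.4 to 68.7 (median 66.1) in PS2APP;Trem2ko mice. The medians were close and the PS2APP;Trem2ko values lay inside the PS2APP;Trem2wt range. The log2 fold change was -0.07 (SE 0.10, 95% interval -0.27 to 0.14, edgeR adjusted p = 0.809).

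**Figure D2:**
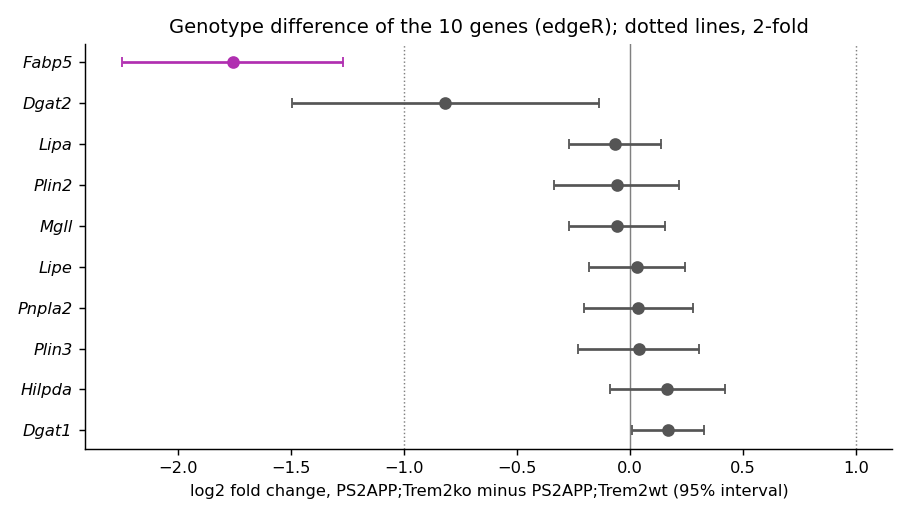
Log2 fold change of each of the 10 genes, PS2APP;Trem2ko minus PS2APP;Trem2wt (x axis), with its 95% interval from edgeR. Dotted lines mark 2-fold in either direction. Fabp5 (magenta) lies wholly below the lower dotted line, the Dgat2 interval crosses that line, and the other 8 intervals stay between the lines.

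Fabp5 (chr3:10012548-10016607) was at 3.36 to 7.91 nRPKM (median 3.74) in PS2APP;Trem2wt and 0.928 to 1.78 (median 1.38) in PS2APP;Trem2ko mice. The lowest PS2APP;Trem2wt mouse was thus above the highest PS2APP;Trem2ko mouse, a separation without overlap that 1.22% of all tested genes showed in this direction. Within PS2APP;Trem2wt, mice 1, 2 and 3 were at 5.02 to 7.91 nRPKM and the other 4 at 3.36 to 3.74. The log2 fold change was -1.76 (SE 0.23, 95% interval -2.25 to -1.27, edgeR adjusted p = 0.000528). Its depth was modest, at 127 to 806 counts in PS2APP;Trem2wt and 65 to 217 in PS2APP;Trem2ko mice. In sorted bulk cells, fewer cells of a type and less RNA per cell cannot be told apart, and this holds for each gene here.

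The closest copy, Gm6166, moved with Fabp5. In PS2APP;Trem2wt mice it was at 1.69 ± 0.47 nRPKM (SD, n = 7), and in PS2APP;Trem2ko mice at 0.444 ± 0.169 (SD, n = 6), with a log2 fold change of -1.94 (SE 0.32, edgeR adjusted p = 0.00422). Its counts were 14.5% of those of Fabp5 in PS2APP;Trem2wt and 12.6% in PS2APP;Trem2ko mice. Of the 938 different 50-base stretches in the coding transcript of Fabp5, 198 (21.1%) also occurred in another gene. When the counts of Fabp5 and 5 processed copies were summed, the log2 fold change was -1.79 (SE 0.22, edgeR adjusted p = 0.00025). Most of the summed counts were those of Fabp5 itself, so this value could differ little from that of Fabp5 alone. It does not show which gene the shared reads came from.

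For Fabp5, males lay among the females of their own genotype. PS2APP;Trem2wt males were within the range of PS2APP;Trem2wt females, and the PS2APP;Trem2ko male was within that of PS2APP;Trem2ko females. In females alone the log2 fold change was -1.77 (edgeR adjusted p = 0.00714). Males were also within the female range of their genotype for Plin3, Lipa and Lipe. A male lay outside that range for Plin2, Dgat1, Hilpda and Mgll in PS2APP;Trem2wt mice. In PS2APP;Trem2ko mice the male lay outside it for Pnpla2, Dgat2 and Hilpda. With 1 male in a group, a genotype difference within males was not tested.

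Other cell types in the sort were measured by marker genes. Neutrophil markers summed to 7.04 to 149 nRPKM in PS2APP;Trem2wt and 0.266 to 22.3 in PS2APP;Trem2ko mice, with the highest value in PS2APP;Trem2wt mouse 2. Without that mouse the log2 fold change of Fabp5 was -1.74, while neutrophil markers in the other PS2APP;Trem2wt mice still summed to 7.04 to 57.6 nRPKM. Whether neutrophils bear on Fabp5 was not tested. Border macrophage markers summed to 11.03 to 32.7 and 18.8 to 47.9 nRPKM, and astrocyte markers to 63.3 to 82.9 and 68.8 to 88.5. The microglial markers summed to 12210 to 14720 and 12150 to 13960 nRPKM, far above the other lists, and of all marker lists 1 gene, the microglial receptor Cx3cr1, passed the test and was lower in PS2APP;Trem2ko mice. No defining marker of the other cell types was at 0 in all mice.

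Genes whose pattern over the 13 mice was most like that of a member were ranked by the root-mean-square difference of standardised log2 CPM, the counts scaled to library size. The nearest to Fabp5 were Pacsin1 (0.203) and Rab7b (0.227), followed by Gm6166 (0.253), against a median of 1.36 over all genes. Pacsin1 was at 2.94 ± 0.74 nRPKM (SD, n = 7) and 0.936 ± 0.242 (SD, n = 6), and Rab7b at 9.04 ± 4.27 and 1.99 ± 0.57. For Plin2 the nearest were Srprb (0.428), Ahcy (0.438) and Ctsz (0.455), against a median of 1.36. Of these, Ahcy was scarce, at 0.0970 ± 0.0344 nRPKM (SD, n = 7) and 0.0893 ± 0.0213 (SD, n = 6). The Plin2 pattern had no neighbour as close as those of Fabp5. Both genotypes entered the ranking, so a shared genotype difference by itself brings genes close. Pacsin1, Rab7b and Gm6166 were all lower in PS2APP;Trem2ko mice, with log2 fold changes of -1.655, -2.188 and -1.944. Plin2, at -0.06, had almost no such difference to share. Gm6166 also shares sequence with Fabp5. Likeness within a genotype was not tested.

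A further 92 genes of lipid storage in 7 lists were set beside the 10. Of these, 76 were tested, 2 were lower (Lpl and Fabp3) and 0 were higher, against 1.53% lower and 0.503% higher among all tested genes. An unadjusted p of 0.05 or less was found for 7, a smaller share than the 14.8% of all tested genes. The calls fell in the list of fatty acid binding and lipid uptake, with 2 of 9 tested genes lower and a median log2 fold change of -0.37. The remaining lists were those without a call, with 0 lower and 0 higher genes by edgeR's adjusted p. Of their 67 tested genes, 4 had an unadjusted p of 0.05 or less (G0s2, Dagla, Nceh1 and Cpt1b), beside 14.8% of all tested genes. That share was taken after the list with the calls was set aside, so it is no separate result.

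**Figure D3:**
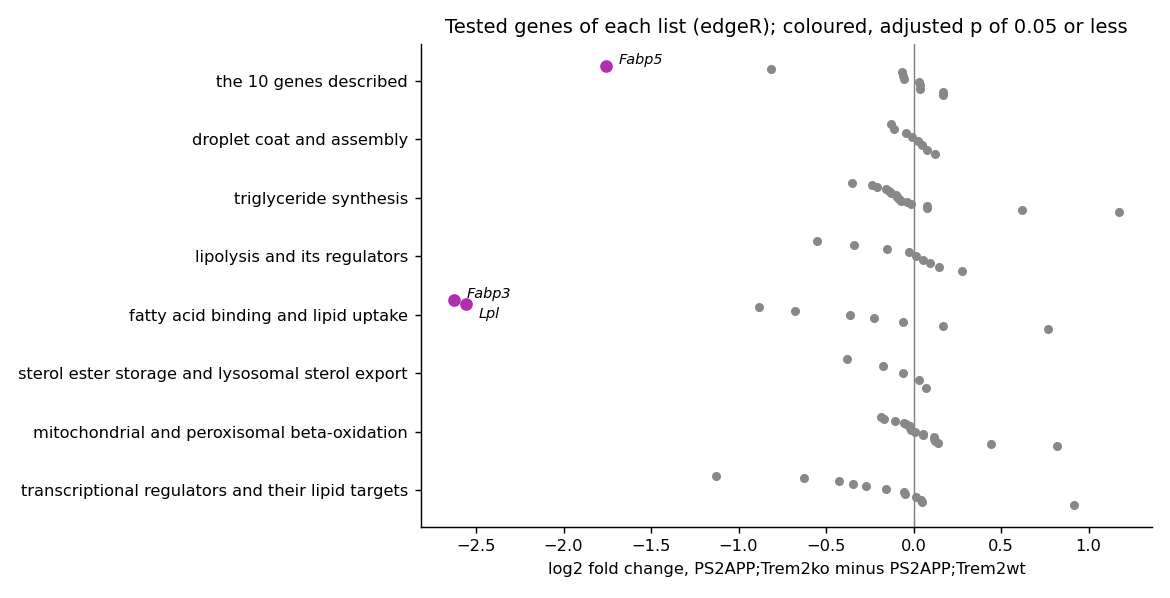
Log2 fold change, PS2APP;Trem2ko minus PS2APP;Trem2wt (x axis), of every tested gene in each list (rows), one point per gene. Coloured, named points had an adjusted p of 0.05 or less. Fabp5, Fabp3 and Lpl lie between -2.63 and -1.76, left of all other genes plotted.

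Lpl, the lipoprotein lipase that frees fatty acids from lipoproteins outside the cell, was at 62.7 to 113 nRPKM (median 67.0) in PS2APP;Trem2wt and 9.54 to 19.6 (median 11.5) in PS2APP;Trem2ko mice, a log2 fold change of -2.55 (SE 0.20). It fell more than Fabp5 in fitted size, and its groups did not overlap.

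Fabp3, another fatty acid carrier, was scarce, at 0.222 to 0.851 nRPKM (median 0.649) in PS2APP;Trem2wt and 0.0292 to 0.135 (median 0.101) in PS2APP;Trem2ko mice. Its log2 fold change was -2.63 (SE 0.42, edgeR adjusted p = 0.00289). It rested on 7 to 71 counts in PS2APP;Trem2wt and 4 to 13 in PS2APP;Trem2ko mice. Over all its annotated transcripts, 37.3% of its 50-base stretches also occurred in other genes, mostly Fabp3-ps1. Counted in the same way, over all transcripts, the share for Fabp5 was 5.48%. Fabp7, a fatty acid carrier known from the brain, had the next lowest p of that list, with a log2 fold change of -0.68 (SE 0.30, edgeR adjusted p = 0.300).

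**Figure D4:**
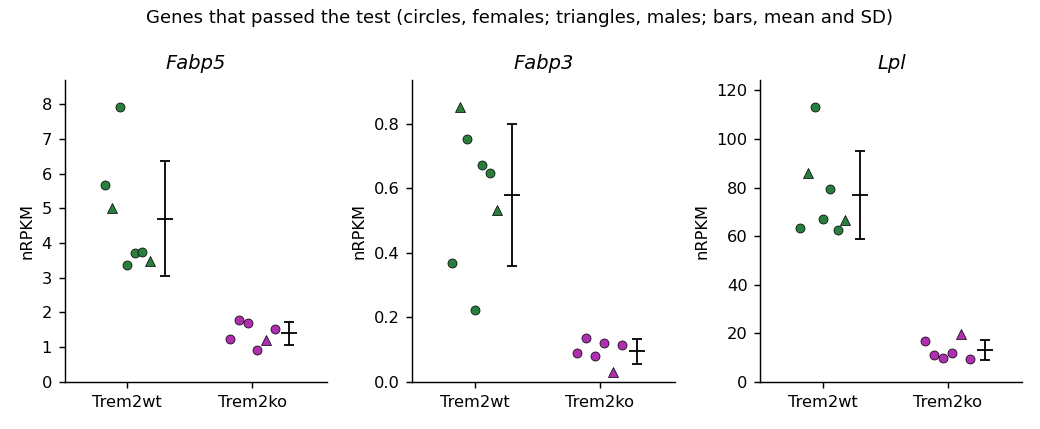
Expression in each mouse of Fabp5 and of the 2 other lipid genes that passed the test, in nRPKM on linear axes that start at 0. Circles are females, triangles are males, and bars give mean and SD (7 PS2APP;Trem2wt, 6 PS2APP;Trem2ko). In each panel all PS2APP;Trem2ko mice lie below all PS2APP;Trem2wt mice.

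The other droplet coat and assembly genes stayed close to the members of that class. Among 8 tested, the log2 fold changes ran from -0.13 to 0.12, the lowest p being that of Aup1 (0.12, SE 0.06, edgeR adjusted p = 0.391), followed by Tmem159 (-0.11) and Hsd17b11 (-0.13). The coat genes Plin1, Plin4 and Plin5 and the fusion proteins Cidea, Cideb and Cidec were not tested, since no mouse had more than 30 counts for any untested gene of that list.

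In triglyceride synthesis, 16 genes were tested, and the lowest p belonged to the acyltransferases Agpat4 (log2 fold change -0.35) and Agpat1 (-0.24) and to the phosphatase Lpin1 (-0.16). Among 9 tested genes of lipolysis and its control, they were G0s2, an inhibitor of the Pnpla2 lipase, at -0.55 (SE 0.25, edgeR adjusted p = 0.307), Dagla (-0.34) and Abhd12 (-0.15). None of these passed over all genes.

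Of 5 genes of sterol ester storage and lysosomal sterol export, Nceh1, a sterol ester hydrolase, had a log2 fold change of -0.38 (SE 0.15, edgeR adjusted p = 0.224). Npc2, which binds cholesterol within the lysosome, was at -0.18 and Soat1, which makes sterol esters, at -0.06. Among 17 genes of beta-oxidation, the lowest p were those of Cpt1b (0.82, SE 0.38, edgeR adjusted p = 0.328), Cpt1c (0.44) and Acadvl (0.12). Among 12 transcriptional regulators and lipid targets, they were those of Hif1a (-0.27), Pdk4 (-1.13) and Rxra (-0.16). Pdk4 was scarce, at 0.0333 to 0.360 nRPKM in PS2APP;Trem2wt and 0 to 0.169 in PS2APP;Trem2ko mice. Its 95% interval was wide, from -2.77 to 0.51. The lists gave no call beyond those of uptake and binding.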

How the data were processed

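Sorted brain myeloid cells of 13 mice were profiled by SMART-seq v4 RNA-seq with single-end 50-base reads. The authors aligned reads with GSNAP to GRCm38 and deposited raw counts per gene, which summed to 26120961 to 114857155 (median 35201380) in PS2APP;Trem2wt and 41567025 to 120569609 (median 55371726) in PS2APP;Trem2ko mice. They also deposited nRPKM values, an RPKM with the authors' own normalisation, used here for levels only. Mice were grouped by the genotype in the labels and numbered within a group in accession order. By the study's methods, mice were mostly handled in pairs of both genotypes from perfusion to sorting, but the labels do not name the pairs, so the fit leaves the pairing out. The lowest chi-square between mice of a genotype was 18.1 per degree of freedom over 36 pairs, so no library was counted as a repeat of another.

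Counts were tested with edgeR 4.0.16 (filterByExpr, TMM scaling, quasi-likelihood test, no covariate, Benjamini-Hochberg adjustment over 17086 genes). Intervals are 95%. The fit was tested on simulated data. The authors' own test was voom with limma, which was run as an alternative, as were DESeq2 1.42.0, other scalings and filters, sex, females alone, limma 3.58.1 on log2(nRPKM + 0.1 or 1), thinning to 26120961 counts, and leaving out each mouse. Of 52636 identifiers, 52489 were given symbols from GENCODE M21. Shared 50-base stretches were counted on annotated transcripts. Named in the text are all 10 genes, each called gene of the other lists with the smallest p of a list holding fewer than 3 calls (up to 3 genes), Trem2, and the 3 genes nearest to Plin2 and Fabp5. A gene of the lists is not reported here. The 10 genes and all lists were chosen with earlier results of these data known.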

Additional observations from a re-analysis of the deposited data

Results flagged for a closer look

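In 7 of 62 groups of a gene and a genotype, a single mouse lay far from the rest by Dixon's criterion, which chance meets in about 1 of 20 groups. PS2APP;Trem2wt mouse 3 was the highest in 4 of them. It had 16.9 nRPKM of Plin3 (the others 9.56 to 12.4), 2.38 of Dgat2 (0.497 to 1.05), 28.6 of Nceh1 (13.8 to 19.99) and 129.5 of Hif1a (68.4 to 91.6). It was also the highest of its group for 6 of the 10 lipid storage genes, and PS2APP;Trem2ko mouse 2, which stood out in none of these groups, was so for 7 of 10. Without PS2APP;Trem2wt mouse 3 the log2 fold changes moved from -0.27 to -0.14 for Hif1a, from -0.24 to -0.14 for Agpat1 and from -0.35 to -0.23 for Agpat4, none of which passed the test. PS2APP;Trem2wt mouse 2, the mouse with the highest neutrophil markers, was lowest for Abhd12 at 480.4 nRPKM (the others 591.6 to 674.4), and PS2APP;Trem2wt mouse 5 was highest for Cpt1b at 0.418 nRPKM (0.0569 to 0.179). PS2APP;Trem2ko mouse 3 was highest for Fabp7 at 0.575 nRPKM (0.240 to 0.319).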

How the results depend on the processing

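Fabp5 was lower and past the threshold in 23 of 23 alternatives, with a highest adjusted p of 0.00714 (females alone), and no other member passed in any of them. Leaving out single mice moved its log2 fold change between -1.84 and -1.58, and limma on log2(nRPKM + 1), which compresses low values, gave -1.22. The scarcer Fabp3 went from -2.63 to -1.75 with 0.1 added to nRPKM and to -0.52 with 1 added. Lpl also passed in 23 of 23, and Fabp3 in the 22 that gave an adjusted p. DESeq2 gave none for Fabp3, so by DESeq2 1 gene of the other lists was lower, and 1 of the uptake and binding list, in place of 2. Fold changes near 0 changed sign without passing the threshold. In females alone these were Plin3 (-0.0062) and Mgll (0.014). Without single mice the range spanned 0 for Plin2 (-0.15 to 0.035), Plin3 (-0.0081 to 0.15), Pnpla2 (-0.017 to 0.095), Lipe (-0.017 to 0.086) and Soat1 (-0.12 to 0.017), and the cause was not tested. DESeq2 called 530 genes lower and 332 higher over all genes, where edgeR called 262 and 86. Females alone gave 173 lower, and no filter 53 higher. Without single mice, 191 to 284 were lower and 42 to 107 higher. No paired analysis was possible because the labels carry no replicate or pair numbers, although the mice were mostly handled in pairs. The groups held 2 males and 1 male, and Fabp3 rested on as few as 4 counts in a mouse.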

Other observations

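Cd36, a scavenger receptor that takes up fatty acids and oxidised lipoproteins, was looked at after its values were seen. It was at 2.45, 1.58 and 2.40 nRPKM in PS2APP;Trem2wt mice 1, 2 and 3, the mice highest for Fabp5, and at 0.540 to 0.876 in the other PS2APP;Trem2wt mice. In PS2APP;Trem2ko mice it was at 0.275 to 1.42 nRPKM, a spread that overlapped that of the PS2APP;Trem2wt mice. Border macrophage markers in PS2APP;Trem2wt mice 1, 2 and 3 summed to 31.5, 31.0 and 28.9 nRPKM, against 11.03 to 32.7 in the others. Monocyte markers in the same mice summed to 6.71, 21.5 and 10.6 nRPKM, against 2.39 to 11.7 in the other PS2APP;Trem2wt mice. Neutrophil markers summed to 40.4, 149 and 26.3 nRPKM, against 7.04 to 57.6. Whether such cells bear on Cd36 or Fabp5 was not tested.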
